A study of Mus musculus with 6 samples.

Results

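The tumour necrosis factor (TNF) superfamily was read out in whole livers of mice on a diet used to induce steatohepatitis: 40 of the 21956 genes in the deposited table, taken by gene symbol, of which 24 encode receptors and 16 encode ligands. Membership rested on the symbol alone (Tnfrsf or Tnfsf followed by a digit, or Tnf, Lta, Ltb, Ltbr, Cd40, Cd40lg, Fas, Fasl or Eda2r), so relatives with other names, such as Ngfr and Cd27, are given separately. The knockout group was 3 Stingfl/fl Cdh5-Cre+ mice. In these, Cre under the endothelial Cdh5 promoter is meant to delete the floxed Sting gene in endothelial cells. Whole-liver RNA does not show in which cells it was deleted. The control group was 3 Stingfl/fl Cdh5-Cre- littermates with the same floxed alleles and no Cre. All 6 animals ate chow until 8 weeks of age and then CDAHFD, a high-fat diet without choline in which amino acids replace protein, for 10 weeks. A group on chow or a Cre+ group without floxed alleles was not analysed here, so the effects of Sting deletion and of Cre alone cannot be told apart and the diet's effect is not measured. Poly(A) RNA of each liver was sequenced, and the comparison asks which transcripts differ with Cdh5-Cre deletion of Sting under this diet.

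Ligands of this family are mostly trimers on the cell surface or shed from it, and receptors bind them through cysteine-rich repeats. Receptors with an intracellular death domain can recruit adaptors that activate caspase-8, whereas the others bind TRAF proteins and signal to NF-kB and stress kinases; decoy receptors bind ligand without signalling. In liver the family is known for hepatocyte death through Fas and the TRAIL receptor, for inflammatory signalling through TNF, and for the regenerative and ductular response to TWEAK.

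Total counts per library lay between 16704663 and 21025466. Sting1, the targeted gene, was at 5.52 ± 1.08 CPM (counts scaled to a common library size) in knockout livers and 13.5 ± 3.40 CPM in control livers (SD, n = 3 each), with no overlap; its log2 fold change of -1.29 had an adjusted p of 0.357 in edgeR and 0.00154 in DESeq2. The labels name both liver and sinusoidal endothelial cells; the hepatocyte gene Alb took 6.91% to 10.9% of all counts in each library, and the endothelial gene Pecam1 stood at 48.8 ± 3.14 CPM in knockout livers and 42.4 ± 5.65 CPM in control livers (SD, n = 3 each). Control replicate 2 stood apart, with a TMM scaling factor of 1.26 against 0.922 to 1.01 in the other 5 libraries, and fold changes of members that it moves most are also given without it. Whole-liver RNA cannot tell fewer cells of a type from less RNA per cell.

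In edgeR's quasi-likelihood test with Benjamini-Hochberg adjustment over the 13197 genes tested, 0 of the 26 members that passed the count filter had an adjusted p under 0.05, and the background was 0% of all genes tested. At an unadjusted p under 0.05 there were 4 members, all lower in knockout livers and all receptors: Tnfrsf10b, Eda2r, Tnfrsf12a and Tnfrsf19. That is 15.4% of the tested members, against 7% of all tested genes that were lower at the same threshold and 3.75% that were higher. Dropping knockout replicate 2, or knockout replicate 3, left 2 such members. The share over all genes was not taken in those fits. DESeq2 called 1 member, Tnfrsf10b, where it called 0.902% of all genes. Across the 26 tested members 14 lay below 0, and their median log2 fold change was -0.05, while 48.8% of all tested genes lay below 0. The receptors had 10 of 18 below 0 with a median of -0.10, and the ligands 4 of 8 with a median of 0.04.

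**Figure D1:**
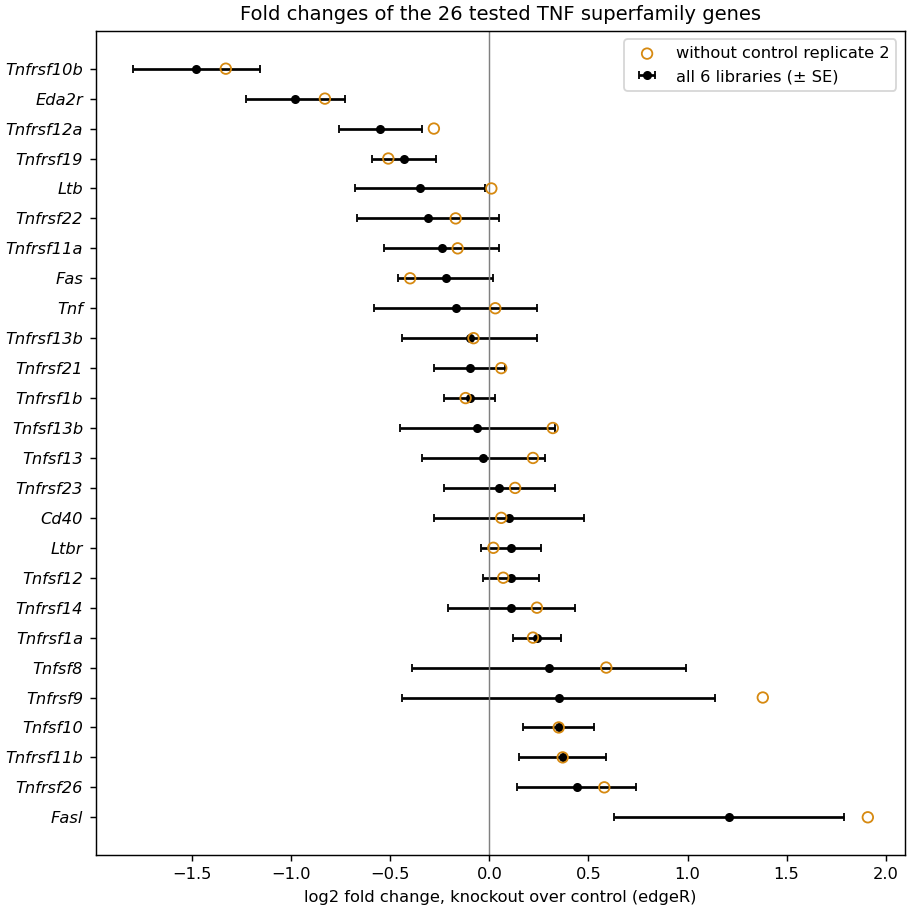
Log2 fold change, knockout over control, of the 26 tested members (black points, bars ± SE; edgeR), sorted by value, with the value without control replicate 2 as open circles. Tnfrsf10b at -1.48 and Eda2r at -0.98 lie lowest, and Fasl at 1.21 highest with a wide error.

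The groups did not overlap in scaled CPM for 6 of the 26 tested members, 4 lower and 2 higher in knockout livers, or 23.1%; over all tested genes the share was 16.4%, with 9.14% lower and 7.25% higher. Without knockout replicate 2 the count was 10 of 28 tested members, and 30.3% of all genes tested were then separate. The 4 lower ones are the receptors named above. The 2 higher ones, Tnfrsf1a and Tnfsf10, lost the separation when CPM was taken over library totals without the scaling factors. That choice moves the median of all genes to -0.21 on the log2 scale, from 0.01 with scaling; over library totals the groups were separate for 19.5% of all genes as lower and 1.74% as higher.

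Tnfrsf10b (ENSMUSG00000022074; GRCm38 chromosome 14, 69767472 to 69784411, plus strand) encodes the death-domain receptor for TRAIL in the mouse. It had 19, 28 and 32 counts in knockout replicates 1 to 3, against 67, 101 and 82 counts in control replicates 1 to 3. Every knockout library was below every control library, and the highest knockout count was under the lowest control count. The level was 1.46 ± 0.395 CPM in knockout livers and 4.07 ± 0.715 CPM in control livers (SD, n = 3 each), a ratio of 35.9%. On the log2 scale the difference was -1.48 ± 0.32 (SE), the unadjusted edgeR p was 0.0013 (rank 46 of 13197 genes), and the adjusted p was 0.357 in edgeR and 0.0138 in DESeq2. Over the fits that each leave out 1 library the log2 fold change ran from -1.63 to -1.27, with an unadjusted edgeR p between 0.00246 and 0.005; without control replicate 2 it was -1.33.

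Tnfsf10, which encodes TRAIL itself, did not pass the test. It had 235, 202 and 207 counts in knockout libraries, against 221, 192 and 154 counts in control libraries. In scaled CPM the lowest knockout library, at 11.4, lay just above the highest control library, at 11.2. It gave a log2 fold change of 0.35, a standard error of 0.18 and an edgeR adjusted p of 0.524, and it was 0.13 over library totals. With single libraries left out it ran from 0.22 without control replicate 3 (unadjusted edgeR p 0.269) to 0.52 without control replicate 1 (p 0.0301). The ligand and its death receptor had fold changes of opposite sign. In TPM, which is scaled to transcript length, Tnfsf10 lay above Tnfrsf10b in each of the 6 libraries, at 4.18, 3.94 and 3.82 in knockout livers and 4.12, 4.46 and 2.65 in control livers, where Tnfrsf10b averaged 0.772 ± 0.212 TPM in knockout livers and 2.62 ± 0.931 TPM in control livers (SD, n = 3 each).

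A cluster on mouse chromosome 7, with gaps of 6.08 kb and 16.1 kb between neighbours, encodes Tnfrsf22 and Tnfrsf23, which in the mouse bind TRAIL without a death domain, and their relative Tnfrsf26. Tnfrsf23 had 57, 85.75 and 55 estimated counts in knockout libraries, against 74, 81.95 and 61 in control libraries, and Tnfrsf22 had 36.38, 58.57 and 26.57, against 49.22, 68.84 and 53.81. The groups overlapped for both. All 6 counts of Tnfrsf22 and 2 of the 6 of Tnfrsf23 were not whole, so that some reads may be shared with other genes, and the value of each alone is uncertain. Tnfrsf26 had 113, 81 and 57 counts in knockout libraries, against 52, 83 and 73 in control libraries, also overlapping. Tnfrsf11b, the secreted decoy osteoprotegerin that binds RANKL and TRAIL, had 99, 147 and 132 counts in knockout libraries, against 114, 111 and 105 in control libraries. None of the 4 decoy receptors had an unadjusted p under 0.05.

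Eda2r (ENSMUSG00000034457; GRCm38 chromosome X, 97333840 to 97377216, minus strand) encodes a receptor for the A2 form of ectodysplasin. It had 50, 65 and 67 counts in knockout libraries, against 100, 165 and 143 counts in control libraries. The groups were separate, with knockout replicate 1 lowest and control replicate 2 highest. The level was 3.36 ± 0.605 CPM in knockout livers and 6.63 ± 1.43 CPM in control livers (SD, n = 3 each). Its log2 fold change of -0.98 had a standard error of 0.25, an unadjusted edgeR p of 0.00404 and an adjusted p of 0.367 in edgeR and 0.0783 in DESeq2. Leaving out each library in turn gave -1.13 to -0.83, all with an unadjusted edgeR p under 0.05. Its ligand gene Eda had 41, 41 and 57 counts in knockout libraries, against 48, 66 and 44 in control libraries, with overlapping groups.

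Tnfrsf12a (ENSMUSG00000023905; GRCm38 chromosome 17, 23675445 to 23677468, minus strand) encodes Fn14, the TWEAK receptor, which is induced in injured epithelium and progenitor cells. It had 280, 295 and 312 counts in knockout libraries, against 430, 666 and 373 counts in control libraries. In scaled CPM the highest knockout library was at 17.1 and the lowest control library at 18.2, so that the separation was narrow, and control replicate 2 stood well above the rest at 31.7. A log2 fold change of -0.55 came with a standard error of 0.21, an unadjusted edgeR p of 0.0287 and an adjusted p of 0.411. Without control replicate 2 it was -0.28 with an unadjusted edgeR p of 0.115, and without knockout replicates 1, 2 and 3 the p was 0.0834, 0.0534 and 0.052.

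Tnfsf12, which encodes TWEAK, stood at 15.2 ± 1.24 CPM in knockout livers and 14.1 ± 0.844 CPM in control livers (SD, n = 3 each). Its libraries overlapped, and the log2 fold change was 0.11 with an edgeR adjusted p of 0.79; it was -0.10 over library totals. Tnfsf12 lies 0.466 kb from Tnfsf13 on chromosome 11 on the same strand. The counts of both were not whole, so that some reads may be shared with other genes. Which genes those are was not examined.

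Tnfrsf19 (ENSMUSG00000060548; GRCm38 chromosome 14, 60963875 to 61046490, minus strand), which encodes TROY, a receptor known from Wnt-responsive epithelial progenitors, had the tightest knockout group of the 4. It had 207, 193 and 193 counts in knockout libraries, against 347, 270 and 280 counts in control libraries. The knockout libraries lay between 10.6 and 11.1 CPM and the control libraries between 12.9 and 17.5 CPM, with control replicate 1, not 2, highest. The log2 difference of -0.43 had a standard error of 0.16, an unadjusted edgeR p of 0.0288 and an adjusted p of 0.411. Without control replicate 2 it was -0.51, and without control replicate 1 it was -0.27 with an unadjusted edgeR p of 0.15; without knockout replicates 1, 2 and 3 the p was 0.06, 0.0599 and 0.0732.

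**Figure D2:**
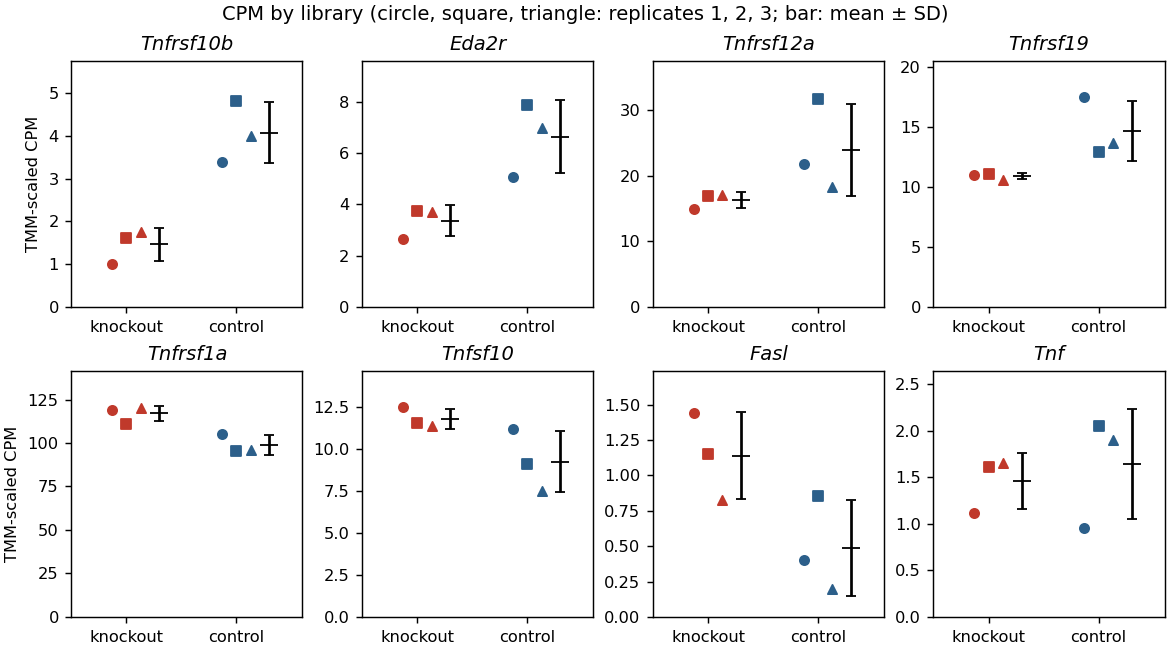
TMM-scaled CPM in each library for 8 members, knockout left of control, with the axis from 0; symbols are replicates 1 to 3 and bars are mean ± SD. The top row shows the 4 receptors whose knockout libraries lie below all control libraries; in the bottom row Tnfrsf1a and Tnfsf10 lie slightly above, while Fasl and Tnf overlap.

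Markers of bile duct and stromal cells lay in the same direction as these receptors. At an unadjusted edgeR p under 0.05, 7% of all tested genes were lower and 3.75% were higher. Of 8 cholangiocyte markers 7 were tested and all 7 lay below 0, 5 of them at an unadjusted p under 0.05; their summed CPM over library totals was 512, 228 and 284 in knockout libraries and 827, 1580 and 504 in control libraries, with knockout replicate 1 just above control replicate 3 and control replicate 2 highest. With TMM scaling the cholangiocyte sums were 556, 242 and 306 in knockout libraries and 816, 1250 and 517 in control libraries. Spp1 is in this list and also in that of monocytes and recruited macrophages, so the sums of those lists share a gene. Of 8 stellate cell and myofibroblast markers 7 lay below 0, 1 of them at an unadjusted p under 0.05. Their summed CPM over library totals was 543, 613 and 608 in knockout libraries and 929, 1810 and 622 in control libraries, again highest in control replicate 2; with TMM scaling the groups overlapped, at 589 to 656 in knockout livers and 638 to 1440 in control livers. None of these markers was at 0 in all libraries. Of 12 endothelial markers 11 lay above 0, 3 of them at an unadjusted p under 0.05; their sum over library totals overlapped, at 435 to 463 in knockout livers and 379 to 466 in control livers, and with TMM scaling it was 462 to 499 in knockout livers and 371 to 437 in control livers. Of 8 hepatocyte markers 7 lay above 0, with 1 higher and 1 lower at an unadjusted edgeR p under 0.05. Their sum over library totals overlapped, at 121000 to 138000 in knockout livers and 87600 to 123000 in control livers. With TMM scaling it was separate, at 128000 to 149000 in knockout livers and 69700 to 126000 in control livers. The part of these cells in the receptor values was not tested.

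Promoter windows of Eda2r, Tnfrsf12a and Tnfrsf19 are shown because these receptors were lower in the same 3 libraries. Tnfrsf10b was also lower in them, but no window was held for it, so its promoter was not searched. RefSeq windows on GRCm38.p6, from 250 bases before to 50 bases after a start, were held for 31 of the 40 members, in 35 windows, and were searched on both strands for 7 motifs. Capitals mark every match to any of them, and matches can overlap. The sequences, 5′ to 3′ on the gene's strand, are those of Eda2r (chrX:97377160-97377459, minus strand), Tnfrsf12a (chr17:23677400-23677699, minus strand) and the 2 starts listed for Tnfrsf19 (chr14:61037938-61038237 and chr14:61046806-61047105, minus strand).
Eda2r: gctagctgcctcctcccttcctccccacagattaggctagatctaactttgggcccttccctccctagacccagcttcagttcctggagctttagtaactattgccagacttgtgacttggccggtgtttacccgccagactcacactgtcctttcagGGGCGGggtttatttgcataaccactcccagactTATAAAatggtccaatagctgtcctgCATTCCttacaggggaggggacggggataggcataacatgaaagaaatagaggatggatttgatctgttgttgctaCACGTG
Tnfrsf12a: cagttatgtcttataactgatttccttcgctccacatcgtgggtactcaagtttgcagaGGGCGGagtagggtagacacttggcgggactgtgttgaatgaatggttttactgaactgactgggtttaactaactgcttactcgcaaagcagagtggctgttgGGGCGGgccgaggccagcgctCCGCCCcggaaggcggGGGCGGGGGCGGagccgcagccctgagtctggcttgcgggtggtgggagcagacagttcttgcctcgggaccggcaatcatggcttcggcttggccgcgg
Tnfrsf19 first window: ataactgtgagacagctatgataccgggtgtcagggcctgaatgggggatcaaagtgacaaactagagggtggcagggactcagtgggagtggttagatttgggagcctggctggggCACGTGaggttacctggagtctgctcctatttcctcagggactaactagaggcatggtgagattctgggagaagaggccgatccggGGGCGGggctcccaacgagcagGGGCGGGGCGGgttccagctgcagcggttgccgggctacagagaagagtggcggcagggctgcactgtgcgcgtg
Tnfrsf19 second window: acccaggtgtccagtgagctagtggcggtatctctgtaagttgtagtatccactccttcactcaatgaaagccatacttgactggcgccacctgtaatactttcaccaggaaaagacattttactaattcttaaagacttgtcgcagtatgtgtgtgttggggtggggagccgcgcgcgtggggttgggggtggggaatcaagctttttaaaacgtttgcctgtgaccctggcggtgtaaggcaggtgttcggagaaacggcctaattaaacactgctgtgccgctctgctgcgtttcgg

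The GC box GGGCGG, which is bound by Sp1-type factors, occurred 5 times in the Tnfrsf12a window, with an adjoining pair 50 and 44 bases before the start. It occurred 3 times in the first Tnfrsf19 window and once in that of Eda2r, and 35.7% of all 32851 windows hold it. The E-box CACGTG occurred in the Eda2r window, 45 bases after the start, and in the first Tnfrsf19 window, 133 bases before the start, against 7.15% of all windows. Eda2r also held the TATA box TATAAA, 58 bases before the start (13.6% of all windows), and the TEAD motif GGAATG on the opposite strand, 32 bases before the start (14.7%). The AP-1 motif TGANTCA (7.81%), the NF-kB motif (GGG and TTTCC with any 2 bases between; 1.63%) and the p53 motif (8.36%) had no match in these 4 windows. A match describes letters in a window and is not a measured binding site.

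In levels per length the family was dominated by a few receptors. The 5 members with the highest mean TPM, Tnfrsf1a, Ltbr, Tnfrsf1b, Tnfrsf12a and Fas, held 74.3% of the summed member TPM, and 33 of the 40 members averaged under 10 TPM, 15 of them under 1. Receptors summed to 285 to 292 TPM in knockout livers and 294 to 420 TPM in control livers, and ligands to 35.6 to 41.6 TPM in knockout livers and 36.4 to 63.1 TPM in control livers. The ligand sums overlapped, and control replicate 2 held the highest sum in both classes; the other 2 control libraries had 334 and 294 TPM of receptors and 36.5 and 36.4 TPM of ligands. The median log2 fold change of all genes on the log2(TPM + 1) scale was -0.20, and the sums are to be read against that shift.

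**Figure D3:**
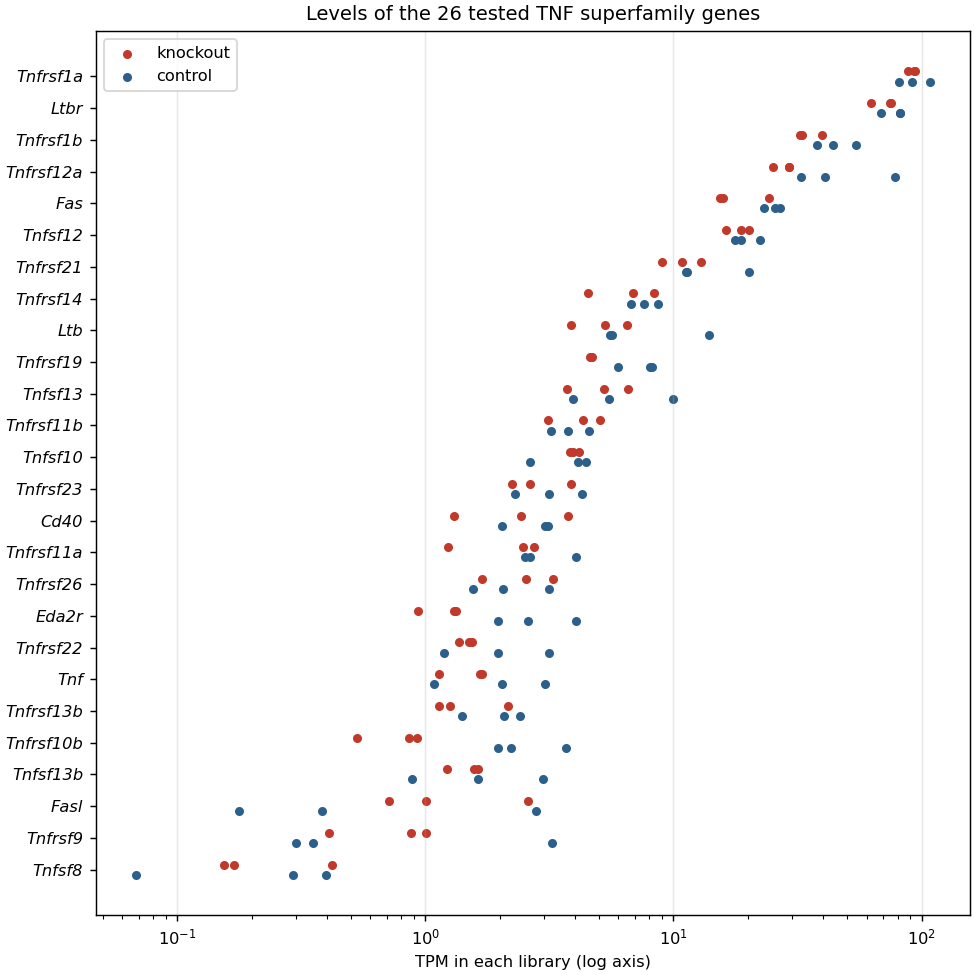
TPM of the 26 tested members in each library on a log axis, ordered by mean level, with knockout points above control points in each row. Levels span from Tnfrsf1a at 92.5 TPM to Tnfsf8 at 0.25 TPM on average, and most rows overlap between the groups.

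Tnfrsf1a, the widely expressed death-domain receptor for TNF, was the most abundant member. It stood at 91.7 ± 3.43 TPM in knockout livers and 93.3 ± 13.5 TPM in control livers (SD, n = 3 each). It had 2231, 1942 and 2175 counts in knockout libraries, against 2086, 2004 and 1961 counts in control libraries, and the raw counts overlapped. The scaled log2 fold change of 0.24 had a standard error of 0.12 and an edgeR adjusted p of 0.525. It was 0.02 over library totals and -0.02 on the log2(TPM + 1) scale, so that its sign did not hold across scalings. The median of all genes was -0.21 and -0.20 in those settings, and the values are to be read against that shift.

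Ltbr, the lymphotoxin-beta receptor, which lies 35.5 kb from Tnfrsf1a on chromosome 6, came next at 70.8 ± 6.97 TPM in knockout livers and 77.4 ± 7.40 TPM in control livers (SD, n = 3 each), so that it overlapped between the groups. It had 1772, 1357 and 1714 counts in knockout libraries, against 1854, 1482 and 1689 in control libraries. Its log2 fold change of 0.11, standard error 0.15, was -0.09 over library totals. Tnfrsf1b, the second TNF receptor, which lacks a death domain and is prominent on immune and endothelial cells, was at 35.0 ± 4.04 TPM in knockout livers and 45.5 ± 8.45 TPM in control livers (SD, n = 3 each). It had 1420, 1555 and 1342 counts in knockout libraries, against 1807, 1718 and 1680 in control libraries; the raw counts were separate, whereas scaled CPM overlapped, and the log2 fold change was -0.10 (standard error 0.13). Tnfrsf12a, next in the order of mean TPM, was at 25.2, 29.2 and 29.2 TPM in knockout libraries and 40.7, 78.5 and 32.7 TPM in control libraries, below Tnfrsf1b in every library except control replicate 2.

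Fas, the death receptor of hepatocyte apoptosis, had 262, 365 and 244 counts in knockout libraries, against 406, 284 and 454 counts in control libraries. Knockout replicate 2 lay among the control libraries, and control replicate 2 among the knockout libraries. It gave a log2 fold change of -0.22, a standard error of 0.24 and an edgeR adjusted p of 0.752; with single libraries left out it ran from -0.45 without knockout replicate 2 to -0.08 without control replicate 3, and it was -0.40 without control replicate 2, -0.10 without knockout replicate 3 and -0.12 and -0.14 without replicate 1 of knockout and control. Tnfrsf21, which encodes the death-domain receptor DR6, had 369, 482 and 424 counts in knockout libraries, against 438, 630 and 476 in control libraries, with overlap. Of the 5 death-domain receptors, 4 were tested, 3 lay below 0, and Tnfrsf10b was the only one with an unadjusted p under 0.05.

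Fasl, the ligand made by cytotoxic lymphocytes, had 27, 20 and 15 counts in knockout libraries, against 8, 18 and 4 counts in control libraries. Control replicate 2 lay among the knockout libraries. Across all libraries the log2 fold change was 1.21, the standard error 0.58 and the edgeR adjusted p 0.495, and with single libraries left out it ran from 0.84 without control replicate 3 (unadjusted edgeR p 0.182) to 1.91 without control replicate 2 (p 0.0156). In limma on log2(TPM + 1) the fold change was 0.33. The deposited TPM order the libraries differently, at 2.59, 1.01 and 0.714 in knockout livers and 0.384, 2.79 and 0.177 in control livers; the effective length that counts and TPM imply differed up to 2.60-fold between libraries. Among 10 markers of T and natural killer lymphocytes, 8 lay above 0. At an unadjusted edgeR p under 0.05, 3 were higher, and so were 3.75% of all tested genes. The summed CPM of the 10 over library totals overlapped, at 16.8 to 29.7 in knockout livers and 13.5 to 20.4 in control livers. With TMM scaling the sums were separate, at 18.1 to 32.3 in knockout livers and 13.8 to 16.2 in control livers. The part of these cells in the Fasl values was not tested.

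The inflammatory ligands were low and did not separate the groups. Tnf, made mainly by macrophages and lymphocytes, had 21, 28 and 30 counts in knockout libraries, against 19, 43 and 39 counts in control libraries, with a log2 fold change of -0.17 and a standard error of 0.41. Ltb, which forms lymphotoxin with Lta, had 69, 46 and 82 counts in knockout libraries, against 69, 139 and 76 in control libraries. Its log2 fold change of -0.35, with a standard error of 0.33, rested on control replicate 2 and was 0.01 without it; that of Tnf was 0.03 without it. Ltb and Tnf lie 3.06 kb apart on chromosome 17, and Lta lies 1.16 kb from Tnf. Of 8 markers of monocytes and recruited macrophages, which include Spp1, 5 lay below 0. Their summed CPM over library totals was 1590, 1450 and 1020 in knockout libraries and 1620, 3090 and 1490 in control libraries. With TMM scaling the sums were 1720, 1540 and 1100 in knockout libraries and 1600, 2460 and 1530 in control libraries. All 8 Kupffer cell markers lay above 0, 6 of them at an unadjusted edgeR p under 0.05, where 3.75% of all tested genes were higher. Their sum over library totals was 623 to 780 in knockout livers and 342 to 621 in control livers. With TMM scaling it was 672 to 829 in knockout livers and 338 to 629 in control livers. The part of these cells in the Tnf values was not tested.

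The tested members that act on B cells and antigen-presenting cells overlapped between the groups. The B cell survival ligand Tnfsf13b (BAFF) had 37, 33 and 29 counts in knockout libraries, against 22, 58 and 37 in control libraries, and Tnfsf13 (APRIL) was at 4.33 ± 1.14 CPM in knockout livers and 4.43 ± 1.39 CPM in control livers (SD, n = 3 each). Tnfrsf13b (TACI), which binds both, had 62, 30 and 35 counts in knockout libraries, against 57, 53 and 42 in control libraries. Cd40, the costimulatory receptor of antigen-presenting cells, had 53, 22 and 31 counts in knockout libraries, against 37, 35 and 38 in control libraries, so that knockout replicate 1 was highest and knockout replicate 2 lowest.

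The remaining tested receptors and ligands also overlapped. Tnfrsf14 (HVEM), which binds LIGHT, had 72, 61 and 37 counts in knockout libraries, against 46, 71 and 61 in control libraries. Tnfrsf11a, the RANKL receptor RANK, had 156, 128 and 67 counts in knockout libraries, against 137, 175 and 154 in control libraries, with knockout replicate 3 far below the others. The T cell costimulatory receptor Tnfrsf9 had 20, 3 and 20 counts in knockout libraries, against 5, 26 and 7 in control libraries, and varied more within each group than between them. Tnfsf8, the ligand of CD30, had 18, 6 and 7 counts in knockout libraries, against 12, 13 and 3 in control libraries.

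The 14 members below the count filter had between 6 and 53 counts over all 6 libraries and were not tested. Highest were Tnfrsf18 (GITR), with 11, 9 and 9 counts in knockout libraries, against 3, 18 and 3 in control libraries, and Tnfsf14 (LIGHT), with 14, 3 and 3 in knockout libraries, against 7, 18 and 5 in control libraries. Among the costimulatory pairs, Tnfrsf4 (OX40) had 8, 4 and 2 counts in knockout libraries, against 4, 3 and 6 in control libraries, and its ligand Tnfsf4 had 0, 1 and 3, against 0, 0 and 3. The CD30 gene Tnfrsf8 had 3, 7 and 7 counts in knockout libraries, against 4, 11 and 0 in control libraries. Tnfsf18, the GITR ligand, had 4, 3 and 3 counts in knockout libraries, against 5, 12 and 3 in control libraries, and Tnfsf9 had 0, 4 and 5, against 4, 8 and 1.

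Cd40lg and Tnfrsf25, among the low members, were separate between the groups by a few counts. The share of genes with separate groups was not taken over all genes below the count filter. Over all tested genes it was 16.4%. Cd40lg, the T cell ligand of CD40, had 0, 2 and 0 counts in knockout libraries, against 3, 6 and 3 in control libraries. Tnfrsf25, the death-domain receptor DR3, had 2, 1 and 2 counts in knockout libraries, against 5, 3 and 4 in control libraries, and its ligand Tnfsf15 had 4, 4 and 1, against 5, 2 and 1. The B cell receptors Tnfrsf13c (BAFF receptor) and Tnfrsf17 (BCMA) had 12, 5 and 6 and 7, 0 and 1 counts in knockout libraries, against 9, 7 and 2 and 2, 0 and 0 in control libraries. Lta had 1, 0 and 0 counts in knockout libraries, against 3, 0 and 2 in control libraries, and Tnfsf11, which encodes RANKL, had 2, 1 and 0, against 2, 2 and 1. With the count filter off, 0 of all 40 members had an edgeR adjusted p under 0.05.

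**Figure D4:**
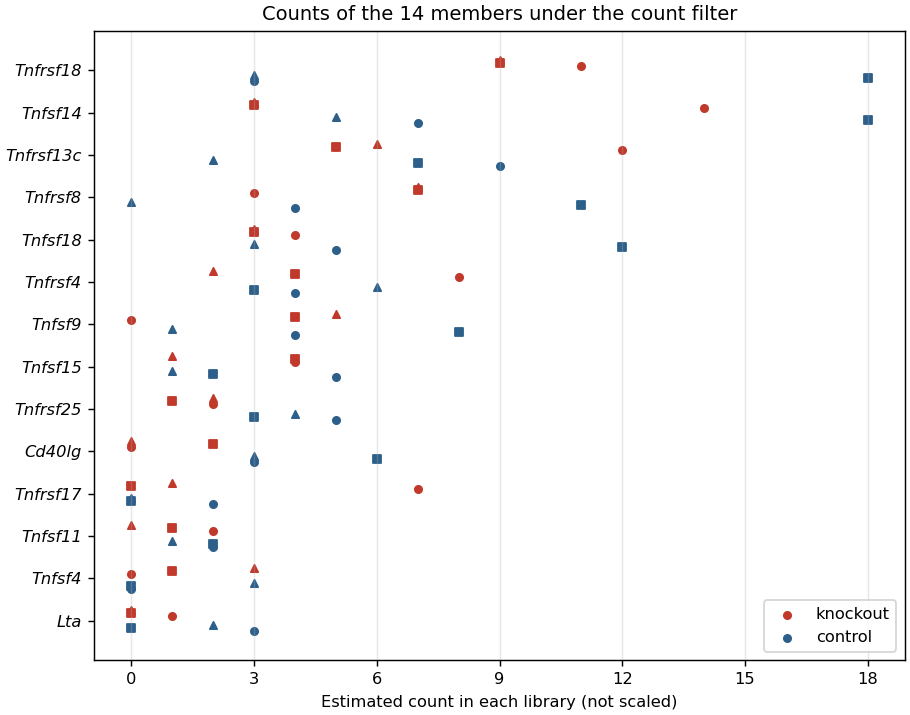
Estimated counts, not scaled, in each library for the 14 members below the count filter, with knockout points above control points and symbols for replicates 1 to 3. No point exceeds 18 counts, and several members stand at 0 in 1 or more libraries.

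Genes around the family were examined in 5 lists of 75 genes in all, of which 71 were tested. In edgeR with Benjamini-Hochberg adjustment 0 of them had an adjusted p under 0.05, 8 had an unadjusted p under 0.05, or 11.3%, where the share over all tested genes was 10.8%. DESeq2 called 1, where it called 0.902% of all genes. Among relatives with other symbols, Ngfr, a death-domain neurotrophin receptor known from stellate cells, had 88, 106 and 98 counts in knockout libraries, against 162, 182 and 191 in control libraries. The groups were well apart, with a log2 fold change of -0.70 and a standard error of 0.18 (edgeR adjusted p = 0.367). Cd27, a T cell costimulatory receptor, had 24, 28 and 7 counts in knockout libraries, against 9, 3 and 20 in control libraries, and its ligand gene Cd70 had 0 in all 6. Of 7 such relatives 4 were tested and 3 lay below 0.

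Of 24 receptor-proximal adaptors and kinases, all tested, 2 were lower and 1 was higher at an unadjusted p under 0.05. Map3k5, which encodes the stress kinase ASK1, had 1062, 776 and 897 counts in knockout libraries, against 567, 733 and 678 in control libraries. Every knockout library was above every control library, with a log2 fold change of 0.64, a standard error of 0.14 and an adjusted p of 0.357 in edgeR and 0.0276 in DESeq2. Tab2, which links TRAF complexes to the kinase TAK1, and Ikbkg, the NEMO subunit of the IkB kinase, were separate in the other direction, at log2 fold changes of -0.44 and -0.38 with standard errors of 0.16 and 0.15, and with single libraries left out they ran from -0.56 to -0.31 and from -0.52 to -0.26. Without scaling factors Map3k5 was at 0.41 and overlapped. The adaptors Tradd, Fadd and Traf2 had log2 fold changes of 0.02, 0.14 and 0.11.

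None of 14 apoptosis genes had an unadjusted p under 0.05 in edgeR, where 5 lay below 0 and the median was 0.11. Apaf1, the apoptosome scaffold, had the smallest p, with a log2 fold change of -0.35. Casp8 and its inhibitor Cflar, which act at the death receptors, were at 0.04 and 0.08 with standard errors of 0.13 and 0.20. Of 25 NF-kB and TNF response genes 24 were tested, 10 lay below 0 and 3 were higher at an unadjusted p under 0.05. These were the neutrophil chemokine Cxcl1, with 337, 534 and 330 counts in knockout libraries, against 235, 261 and 298 in control libraries (log2 fold change 0.78, standard error 0.23), Junb at 0.51 and Tnfaip2 at 0.44. Over library totals these were 0.57, 0.29 and 0.21; Tnfaip2 was -0.11 in both TPM fits and 0.27 without knockout replicate 2, and Cxcl1 was 0.48 without knockout replicate 2. The feedback inhibitors Tnfaip3 and Nfkbia were at -0.01 and -0.08. Of 5 shedding genes, Timp3, which inhibits the TNF-releasing protease ADAM17, was at -0.55 with a standard error of 0.24; its groups overlapped, and without control replicate 2 it was at -0.32.

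**Figure D5:**
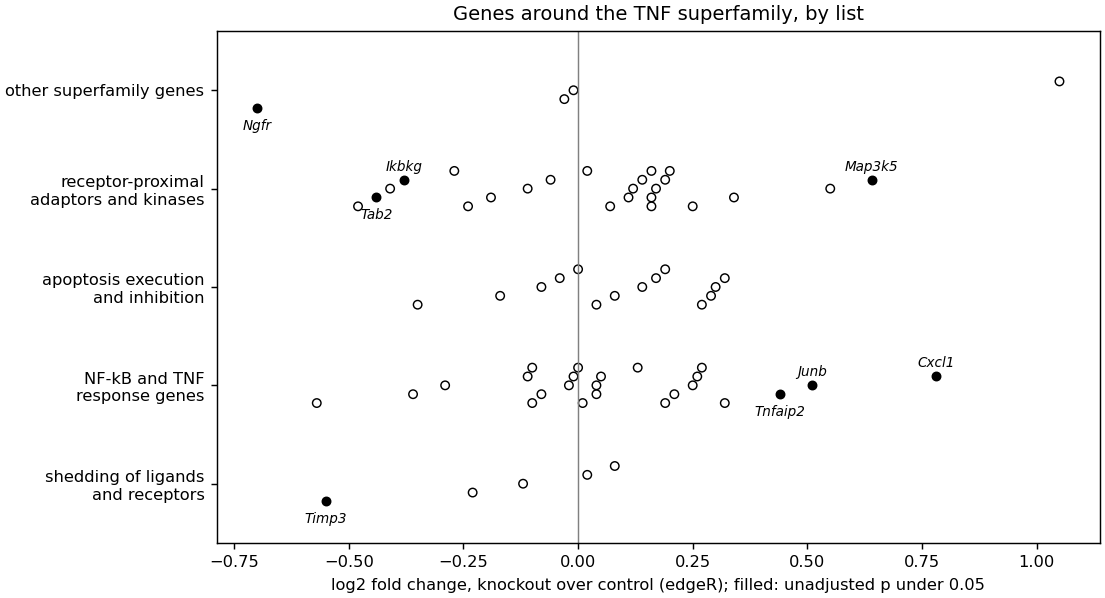
Log2 fold change, knockout over control, of the 71 tested genes in 5 lists around the family, 1 point a gene; filled points have an unadjusted edgeR p under 0.05 and are named. The 8 filled points are split evenly, with Ngfr, Tab2, Ikbkg and Timp3 below 0 and Map3k5, Cxcl1, Junb and Tnfaip2 above.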

How the data were processed

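Poly(A) RNA of 6 whole livers was sequenced, 3 knockout and 3 control, grouped by the labels. The estimated counts and the TPM values per gene were deposited by the authors. The tools named per the submitters' processing notes, without roles, are RSEM 1.3.3, HISAT2 2.2.1, DESeq2 1.38.3 and fastp 0.23.2, with GRCm38 as build. The annotation release and strand setting remain not given in the sources used here. The estimated counts as deposited are not normalized; 6.93% of values were not whole and were rounded. The TPM values by the authors are scaled to length and to a fixed total.

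The whole table was fitted with edgeR 4.0.16 (TMM, filterByExpr, robust quasi-likelihood test, Benjamini-Hochberg at 0.05), and SE was derived from the fold change and F. CPM uses TMM-scaled library sizes, except summed marker CPM, which uses library totals unless TMM is named. Alternatives were DESeq2 1.42.0, limma 3.58.1 (voom, log2(TPM + 1), log2(TPM + 0.1)), other scalings and filters, a replicate block and each library left out. Fits were tested on simulated data. Positions came from GENCODE M21 (GRCm38), in which all 40 members were found. No library pair was close to a repeat (chi-square per gene 25.9 to 146). The labels call the libraries biological replicates. The members and lists were chosen with earlier results of these data known. Values per library are printed for members with an unadjusted p under 0.05 or separate groups, the 6 highest by TPM, their partners and low members, and up to 4 genes with the smallest p of each other list; further genes were named after their values were seen. The computations ran in Python 3.11.15 with matplotlib 3.10.9, and in R 4.3.3.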

Additional observations from a re-analysis of the deposited data

How the results depend on the processing

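The count of members with an adjusted p under 0.05, taken from the test of each fit, was 0 in every alternative except DESeq2. There it was 1 (Tnfrsf10b, log2 fold change -1.47). DESeq2 also called 1 gene of the other lists (Map3k5, 0.65) and Sting1 (-1.28). The 4 receptors were lower under every alternative run. Members at an unadjusted p under 0.05 numbered 2 to 5 over all alternatives, 2 without knockout replicate 2 and 2 without knockout replicate 3, and 2 to 4 when single libraries were dropped. The share of all genes at that threshold was taken in the main edgeR fit only, at 10.8% in either direction. The counts in the alternatives therefore have no matching background. Members with separate groups numbered 6 to 10 with single libraries dropped (10 without knockout replicate 2). Without knockout replicate 2 the share over all tested genes was 30.3%, against 16.4% with all 6 libraries. That share was not taken with any other library dropped, so those counts have no matching background. With single libraries dropped, the members' median log2 fold change ran from -0.09 to 0.06. It was -0.29 over library totals, -0.22 on the log2(TPM + 1) scale and -0.25 on the log2(TPM + 0.1) scale, where the median of all genes was -0.21, -0.20 and -0.23. Some values changed sign with scaling: over library totals Ltbr was -0.09 and Tnfsf12 -0.10; in both TPM fits Tnfrsf1a was -0.02, Ltbr -0.13, Tnfsf12 -0.09 and Tnfaip2, at 0.44 with TMM, -0.11. With single libraries dropped Tnf ran from -0.43 to 0.03 and Ltb from -0.54 to 0.01, both above 0 without control replicate 2 only, and Sting1 from -1.42 to -1.06. Same-numbered libraries did not all deviate together, with correlations of 0.11, -0.01 and 0.13, against -0.28 to 0.18 for pairs with different numbers. Whether same-numbered libraries were paired cannot be told from these few values. With the replicate block 5 members had an unadjusted p under 0.05, and 0 an adjusted one. Over all genes edgeR called 0, 5 with the replicate block, 2 without control replicate 2 and 2 without control replicate 3, and DESeq2 called 119. Low counts limit the precision of the rarest members.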
